A study of Mus musculus with 36 samples.

Results

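The genes described here are the AP-1 transcription factors of the FOS family (*Fos*, *Fosb*, *Fosl1* and *Fosl2*) and of the JUN family (*Jun*, *Junb* and *Jund*), together with *Atf3*. They were taken by gene name from the table of raw gene counts, which gave 8 of its 55416 genes, and all 8 passed the filter on low counts. RNA came from C2C12 myotubes, multinucleate fibres grown from a mouse myoblast line, on day 4 of differentiation. The cultures had received a locked nucleic acid (LNA) antisense oligonucleotide, either a negative control LNA (control myotubes) or one against the long non-coding RNA *Tug1* (*Tug1* KD). They were left unstimulated (Rest) or given 3 h of electrical pulse stimulation (EPS), which makes cultured myotubes contract, and collected directly afterwards (EPS 0h) or after a further 3 h of recovery (EPS 3h). This gave 6 groups of 6 libraries and 36 libraries in all, each library from 1 well. The study describes 2 independent experiments with 3 wells per group, and the labels do not say which replicate came from which experiment. The tests have no term for the experiment, so they measure the spread between wells of 1 cell line, with differences between experiments included. The Rest groups served as reference for both time points, and every group, Rest included, had received an LNA. Per the study, Rest plates held electrodes for as long as the stimulated ones, without connection to the pulse generator. The labels name no Rest group for the recovery time. At EPS 3h an effect of EPS and the added time in culture therefore cannot be told apart.

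AP-1 is a dimer of basic leucine zipper (bZIP) proteins that binds a short DNA element in promoters and enhancers. FOS proteins must pair with a JUN protein to bind DNA, while JUN proteins can also pair among themselves, and the composition of the dimer sets which genes it activates or represses. *Fos*, *Fosb*, *Jun*, *Junb* and *Atf3* are classical immediate early genes, which are transcribed within minutes of growth factor, calcium or stress signals and do not need new protein synthesis, and contraction and stretch are among the stimuli known to induce several of them in muscle.

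The libraries held 17005079 to 24181167 counts on genes. Values are given as CPM, the count relative to the library total after scaling by TMM factors, and a change is the log2 fold change (log2FC) of edgeR's quasi-likelihood model over all 6 groups, with its standard error (SE). A gene was called at a false discovery rate (FDR, the p value adjusted by Benjamini-Hochberg over the 13995 genes tested) below 0.05. *Tug1* was at 48.3 ± 6.77 CPM in control and 27.2 ± 3.68 CPM in *Tug1* KD myotubes at Rest (SD, n = 6), a log2FC of -0.83 (SE 0.171, FDR = 0.000915) with no overlap of the libraries. It was also lower at EPS 0h (log2FC -0.57, FDR = 0.0178) and at EPS 3h (log2FC -0.51, FDR = 0.0414). The call at EPS 0h was lost without replicate 3 or 5, and that at EPS 3h without replicate 1, 3, 4, 5 or 6, with values from -0.60 to -0.43. Of 10 myotube markers 9 were tested, the group means of *Acta1*, *Myh3* and *Mylpf* ran from 2809 to 4934 CPM, and *Tnnc2* was near 0. By the chi-square over its degrees of freedom between 2 libraries, replicates 1 to 3 and 4 to 6 stood apart in both EPS 0h groups. In the Rest and EPS 3h groups the sets were not fully apart. In control EPS 3h replicate 3 was nearer to replicates 4 to 6 (42.8 to 53.8) than to replicates 1 and 2 (68.0 and 71.8).

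Loci are given on GRCm39, the build of the counts, from the GENCODE annotation. *Fos* lies at chr12:85520658-85524047 on the plus strand, *Fosb* at chr7:19036621-19043976 on the minus strand, *Fosl1* at chr19:5497575-5505974 on the plus strand and *Fosl2* at chr5:32292707-32315186 on the plus strand, each with 4 exons in the canonical transcript. *Jun* (chr4:94937271-94940459, minus strand), *Junb* (chr8:85701113-85705359, minus strand) and *Jund* (chr8:71151599-71153265, plus strand) have a single exon each in the canonical transcript. *Atf3* (chr1:190902493-190950241, minus strand) has 4. The count tables hold whole genes, so exons, introns and UTRs of a gene are not told apart. The study prepared stranded libraries, but the strand setting of the counting is not given in the sources used here. Annotated exons on the opposite strand overlap those of *Fosl1* by 1163 bases (*Ccdc85b*), of *Jun* by 528 bases (the antisense RNA *Junos*), of *Junb* by 173 bases (*Prdx2*) and of *Jund* by 877 bases (*Gm11175*, not tested).

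The stretches before the annotated start sites are shown for *Fos* and *Fosb*, the pair with the closest pattern, for *Jun*, which rose further from EPS 0h to EPS 3h, and for *Junb*, which fell. Capitals mark matches on either strand to the CArG box (the binding site of SRF), to TGACG (the first letters of the cyclic AMP response element, which CREB and ATF proteins bind), to TGACATCA (an AP-1-like element) and to TATAAA. Sequences run 5′ to 3′ on the strand of the gene.
Fos, chr12:85520348-85520647, 310 to 11 bases before the start: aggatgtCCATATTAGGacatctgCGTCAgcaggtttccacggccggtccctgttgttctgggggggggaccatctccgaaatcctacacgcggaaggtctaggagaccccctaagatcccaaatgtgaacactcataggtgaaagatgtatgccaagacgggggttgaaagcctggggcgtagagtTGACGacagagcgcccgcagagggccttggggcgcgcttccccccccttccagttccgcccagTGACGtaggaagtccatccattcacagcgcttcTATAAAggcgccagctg
Fosb, chr7:19043997-19044296, 320 to 21 bases before the start: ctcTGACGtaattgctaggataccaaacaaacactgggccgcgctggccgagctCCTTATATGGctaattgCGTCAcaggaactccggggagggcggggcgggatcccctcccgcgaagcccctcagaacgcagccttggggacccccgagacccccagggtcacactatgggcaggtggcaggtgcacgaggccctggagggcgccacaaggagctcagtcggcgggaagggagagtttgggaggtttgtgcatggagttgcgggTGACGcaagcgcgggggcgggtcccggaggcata
Jun, chr4:94940460-94940559, 100 to 1 bases before the start: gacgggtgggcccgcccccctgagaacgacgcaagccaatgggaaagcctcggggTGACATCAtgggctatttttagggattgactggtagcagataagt
Junb, chr8:85705348-85705497, 150 to 1 bases before the start: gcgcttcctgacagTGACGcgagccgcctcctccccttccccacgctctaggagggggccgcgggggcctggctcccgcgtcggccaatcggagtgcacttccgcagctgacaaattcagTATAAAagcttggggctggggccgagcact

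Within 500 bases before the start, a CArG box was found in *Fos* and *Fosb* and in none of the other 6 genes. It was present in 2.55% of 13944 promoters of tested genes of the same length. TGACG was found in 6 of the 8 genes, all but *Fosl2* and *Atf3*, and in 31.6% of the promoters. TGACATCA was found in *Jun*, 45 bases before its start, and in 2.17% of promoters. TGACGTCA, the full cyclic AMP response element, which contains TGACG, was found in *Jund* and in 2.3% of promoters. TGACTCA, the consensus AP-1 element, was found in none of the 8 genes and in 6.67% of promoters. These matches are descriptions of letters in the window and do not show that a factor binds there.

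At EPS 0h in control myotubes 4 of the 8 genes rose from Rest (*Fos*, *Fosb*, *Jun* and *Atf3*) and 1 fell (*Junb*). Over all genes tested 38.9% were called, 20.5% higher and 18.4% lower, and the median log2FC was 0.14 over the 8 genes and -0.03 over all genes. At EPS 3h the same 4 genes were above Rest and *Junb* and *Jund* below it, with a background of 52% called, 26.1% higher and 25.9% lower. The median log2FC was then 0.60 over the 8 genes and -0.02 over all genes. Scaled by library size only, the median of all genes was -0.10 at EPS 0h and -0.19 at EPS 3h, and 40% and 32.5% of the genes called were higher, against 52.8% and 50.2% with TMM, while no call among the 8 genes changed direction. With *Tug1* KD the same 4 genes rose and *Junb* and *Jund* fell, both at EPS 0h (background 45.6%, 24.4% higher and 21.2% lower) and at EPS 3h (background 52.1%, 26.2% higher and 25.9% lower). The plot of CPM by library and the plot of changes from Rest show these values for all 8 genes.

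**Figure D1:**
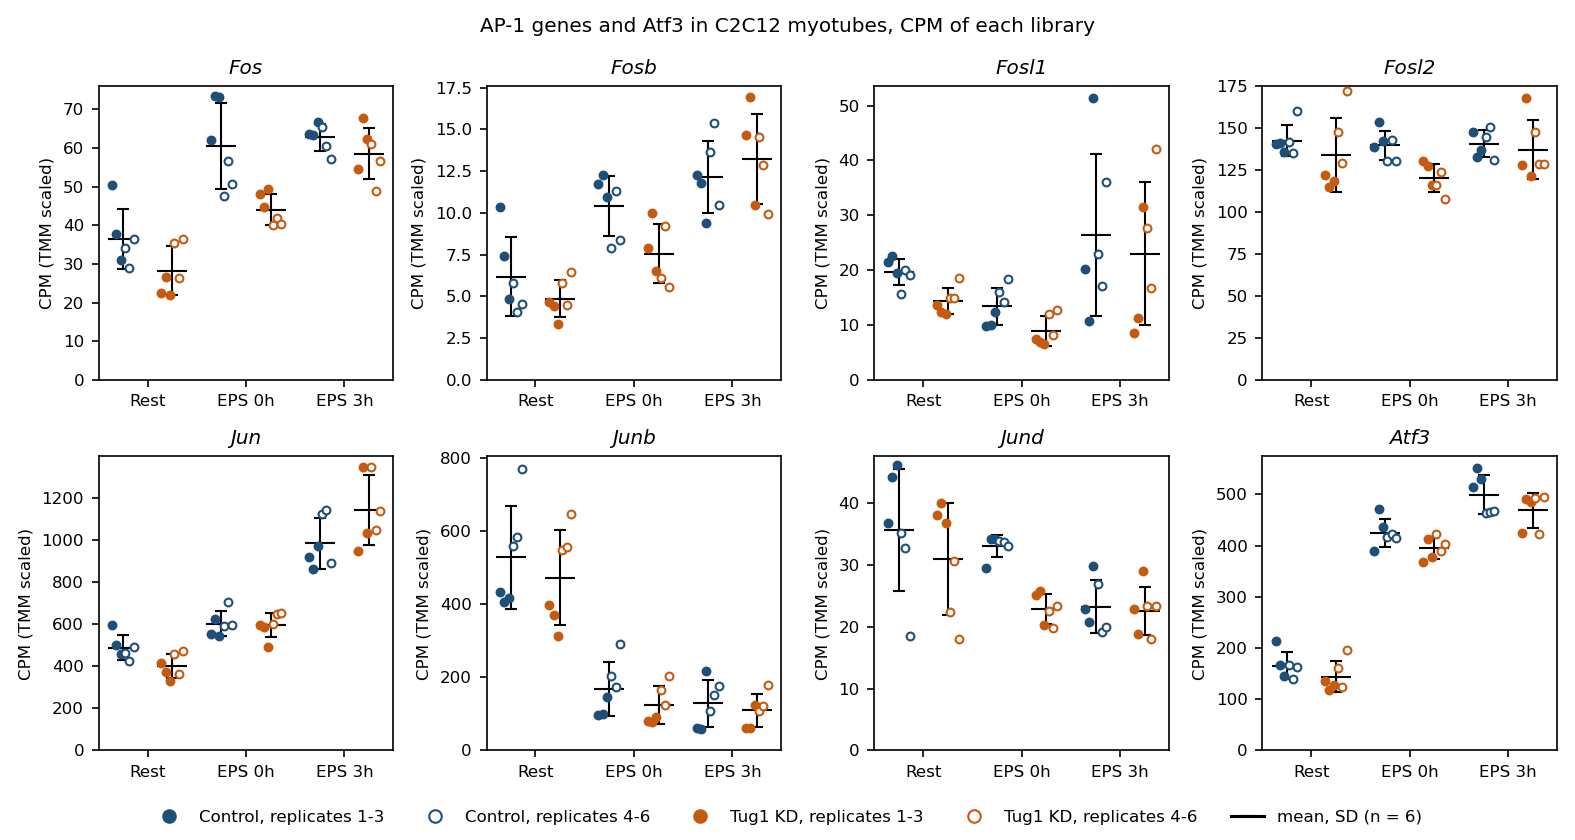
CPM (TMM scaled, linear axes from 0) of the 8 genes in each of the 36 libraries, by condition and LNA, with the mean and SD of 6 libraries. Filled points are replicates 1 to 3 and open points replicates 4 to 6. *Atf3* and *Jun* rise across the conditions, *Junb* falls between Rest and EPS 0h, the group means of *Fosl2* lie between 120.2 and 142 CPM, and *Fosl1* is scattered at EPS 3h.

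*Fos* is the founding member of its family and a textbook marker of acute signalling. Its level in control myotubes ran from 29.1 to 50.6 CPM at Rest (median 35.3), from 47.5 to 73.5 CPM at EPS 0h (median 59.3) and from 57.2 to 66.6 CPM at EPS 3h (median 63.5). With *Tug1* KD it ran from 21.9 to 36.5 CPM at Rest (median 26.4), from 40.0 to 49.4 CPM at EPS 0h (median 43.3) and from 48.8 to 67.7 CPM at EPS 3h (median 58.8). In control myotubes 5 of 6 libraries at EPS 0h and all 6 at EPS 3h exceeded the highest of Rest. With *Tug1* KD neither time point overlapped Rest. The log2FC from Rest was 0.73 at EPS 0h (SE 0.127, FDR = 2.07e-05) and 0.78 at EPS 3h (SE 0.127, FDR = 3.29e-06) in control myotubes. It was 0.64 (SE 0.128, FDR = 0.000101) and 1.05 (SE 0.129, FDR = 1.48e-08) in *Tug1* KD myotubes. The *Tug1* KD value at EPS 0h was 1.01 in replicates 1 to 3 alone (FDR = 2.6e-05) and 0.32 in replicates 4 to 6 alone, where it was not called (FDR = 0.0609). Between EPS 0h and EPS 3h *Fos* did not pass the test in control myotubes (log2FC 0.05, 95% interval -0.20 to 0.31), and it rose in *Tug1* KD myotubes (log2FC 0.41, SE 0.127, FDR = 0.0232). That last call was lost without replicate 2 (0.36, FDR = 0.1), without replicate 4 (0.37, FDR = 0.093) and in replicates 1 to 3 alone (0.38, FDR = 0.106).

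*Fosb*, known for lasting induction under repeated stimulation, was the gene with the fewest counts (62 to 315 per library). Its median in control myotubes was 5.34 CPM at Rest (4.08 to 10.3), 11.1 CPM at EPS 0h (7.90 to 12.2) and 12.04 CPM at EPS 3h (9.41 to 15.4). With *Tug1* KD the medians were 4.57 CPM at Rest (3.32 to 6.46), 7.21 CPM at EPS 0h (5.57 to 9.97) and 13.7 CPM at EPS 3h (9.92 to 16.9). Groups overlapped in control myotubes, where replicate 1 at Rest was high, and Rest and EPS 3h did not overlap in *Tug1* KD myotubes. The log2FC from Rest was 0.76 (SE 0.192, FDR = 0.00191) and 0.98 (SE 0.192, FDR = 5.31e-05) in control, and 0.63 (SE 0.195, FDR = 0.00867) and 1.44 (SE 0.195, FDR = 1.14e-07) in *Tug1* KD myotubes. The rise at EPS 0h in *Tug1* KD myotubes was not called without replicate 2 (0.51, FDR = 0.0644) or in replicates 4 to 6 alone (0.32, FDR = 0.306), against 0.98 in replicates 1 to 3 (FDR = 0.00335). The control value at EPS 3h was 0.58 in replicates 1 to 3 (FDR = 0.0483) and 1.45 in replicates 4 to 6 (FDR = 2.21e-05). From EPS 0h to EPS 3h it rose in *Tug1* KD myotubes (log2FC 0.81, SE 0.191, FDR = 0.00231), and in control myotubes the log2FC was 0.23 (95% interval -0.15 to 0.61).

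*Fosl1* encodes FRA1, a FOS protein without the activation domain of FOS that is usually transcribed later, partly by AP-1 itself. In control myotubes it was at 15.7 to 22.6 CPM at Rest (median 19.7), 9.75 to 18.3 CPM at EPS 0h (median 13.3) and 10.8 to 51.3 CPM at EPS 3h (median 21.6). *Tug1* KD myotubes had 11.9 to 18.6 CPM (median 14.3), 6.48 to 12.8 CPM (median 7.82) and 8.57 to 42.1 CPM (median 22.3). The EPS 3h groups were the most scattered, with replicates 3 and 6 highest in each, and each of the 6 libraries at EPS 0h was below the Rest mean of its LNA group. The log2FC at EPS 0h was -0.55 (SE 0.294, FDR = 0.137) in control and -0.68 (SE 0.3, FDR = 0.0609) in *Tug1* KD myotubes. With the replicate number as a block it was -0.63 (FDR = 0.0286) and -0.71 (FDR = 0.0146). In these comparisons 2 of 6 (control) and 3 of 6 (*Tug1* KD) libraries were closest to their own number, so pairs are not shown. Fitted to the compared groups alone it was called as well, at -0.55 (FDR = 0.00928) and -0.70 (FDR = 0.00408). The control value was -0.98 in replicates 1 to 3 (FDR = 0.0743) and -0.18 in replicates 4 to 6 (FDR = 0.664). At EPS 3h the log2FC from Rest was 0.42 (FDR = 0.226) in control and 0.67 (SE 0.294, FDR = 0.0547) in *Tug1* KD myotubes. The *Tug1* KD value was called in several alternatives, among them DESeq2 and a block for the replicate number or for replicates 1 to 3 against 4 to 6. Over the alternatives it ran from 0.44 to 0.83, with FDR from 0.0165 to 0.396. From EPS 0h to EPS 3h *Fosl1* rose by 0.98 in control (SE 0.295, FDR = 0.0182) and by 1.35 in *Tug1* KD myotubes (SE 0.301, FDR = 0.00134). Without replicate 3 of control EPS 3h (51.3 CPM) the control value was 0.68 and was not called (FDR = 0.109), an alternative chosen after seeing the data. With replicate 3 left out of all groups it was 0.66 (FDR = 0.175) and with replicates 4 to 6 alone 0.66 (FDR = 0.117), and in replicates 1 to 3 alone the *Tug1* KD value was 1.30 (FDR = 0.0794). On the opposite strand *Ccdc85b* did not follow this rise, with a log2FC of -0.01 (FDR = 0.987) in control myotubes and 0.20 (FDR = 0.701) in *Tug1* KD myotubes from EPS 0h to EPS 3h. At EPS 0h it was below Rest, as *Fosl1* was, at -0.65 in control (FDR = 0.041) and -0.93 in *Tug1* KD myotubes (FDR = 0.00376). For *Tug1* KD against control it was at -0.45 at Rest (FDR = 0.329) and -0.72 at EPS 0h (FDR = 0.0548). Reads of *Fosl1* and *Ccdc85b* cannot be told apart if strand was not used in counting.

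*Fosl2* encodes FRA2, the other FOS protein that lacks the activation domain of FOS. Its medians lay between 119.8 and 141 CPM over the 6 groups, with a lowest library of 108 CPM and a highest of 172 CPM. All neighbouring groups in the order of levels overlapped. Its log2FC from Rest in control myotubes was -0.03 at EPS 0h (95% interval -0.20 to 0.15) and -0.02 at EPS 3h (95% interval -0.19 to 0.16). With *Tug1* KD it was -0.16 at EPS 0h (FDR = 0.133) and 0.03 at EPS 3h (FDR = 0.779). The *Tug1* KD value at EPS 0h was called in replicates 4 to 6 alone (-0.37, FDR = 0.0125), scaled by library size only (-0.24, FDR = 0.0191) and with upper quartile factors (-0.21, FDR = 0.0355), and it was 0.09 in replicates 1 to 3 (FDR = 0.522). Among the 8 genes it had the smallest range of group means, 0.25 on the log2 scale.

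*Jun* encodes c-Jun, the partner through which JNK and other kinases act on AP-1. In control myotubes it was at 425 to 596 CPM at Rest (median 476), 545 to 706 CPM at EPS 0h (median 594) and 862 to 1144 CPM at EPS 3h (median 945). *Tug1* KD myotubes had 329 to 471 CPM (median 394), 491 to 651 CPM (median 598) and 949 to 1346 CPM (median 1092). In both LNA groups EPS 3h did not overlap EPS 0h. The log2FC from Rest was 0.30 at EPS 0h (SE 0.104, FDR = 0.0192) and 1.01 at EPS 3h (SE 0.105, FDR = 4.25e-10) in control myotubes. It was 0.57 (SE 0.104, FDR = 3.15e-05) and 1.51 (SE 0.106, FDR = 2.9e-14) in *Tug1* KD myotubes. *Jun* rose further from EPS 0h to EPS 3h, by 0.71 in control (SE 0.104, FDR = 4.16e-06) and by 0.94 in *Tug1* KD myotubes (SE 0.104, FDR = 2.15e-08). The rise at EPS 0h in control myotubes was not called without replicate 5 (0.21, FDR = 0.137), in replicates 1 to 3 alone (0.14, FDR = 0.421) or when scaled by library size only (0.23, FDR = 0.0842). The antisense gene *Junos* was at 1.82 CPM at Rest and 4.12 CPM at EPS 3h in control myotubes, a log2FC of 1.17 (FDR = 5.12e-06), and reads of *Jun* and *Junos* cannot be told apart if strand was not used in counting.

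*Junb*, a JUN protein with weaker activation that can oppose c-Jun and that is known in muscle for maintaining fibre size, moved the other way. In control myotubes it was at 405 to 767 CPM at Rest (median 496), 97.6 to 291 CPM at EPS 0h (median 160.0) and 57.4 to 218 CPM at EPS 3h (median 130.0). *Tug1* KD myotubes had 313 to 645 CPM (median 473), 77.1 to 203 CPM (median 108) and 61.2 to 179 CPM (median 114). No EPS library of either LNA group reached its lowest Rest library. The log2FC from Rest was -1.65 at EPS 0h (SE 0.315, FDR = 7.97e-05) and -2.03 at EPS 3h (SE 0.319, FDR = 1.81e-06) in control, and -1.93 (SE 0.318, FDR = 6.89e-06) and -2.11 (SE 0.32, FDR = 9.64e-07) in *Tug1* KD myotubes. From EPS 0h to EPS 3h the log2FC was -0.39 in control (95% interval -1.01 to 0.24) and -0.18 in *Tug1* KD myotubes (95% interval -0.81 to 0.45). *Prdx2* on the opposite strand did not share the fall, with a log2FC of -0.07 at EPS 0h (FDR = 0.756) and -0.11 at EPS 3h (FDR = 0.592).

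The mean of *Junb* was higher in replicates 4 to 6 than in replicates 1 to 3 in each of the 6 groups. At EPS 0h the set means were 114 and 223 CPM in control and 83.2 and 164 CPM in *Tug1* KD myotubes, a difference of 0.97 (SE 0.332, FDR = 0.0264) and 0.98 (SE 0.334, FDR = 0.0254) on the log2 scale. Of all genes 31.8% and 32% differed between the sets in these groups. At EPS 3h replicates 1 and 2 were lowest in both LNA groups, at 60.6 and 57.4 CPM in control and 61.2 and 62.1 CPM in *Tug1* KD myotubes. Replicates 3 and 6 were highest in both LNA groups, as for *Fosl1*. In control myotubes the fall from Rest differed between the sets by 0.36 at EPS 0h (SE 0.464, FDR = 0.769, background 0.0786%) and by -0.23 at EPS 3h (SE 0.465, FDR = 0.885, background 0.336%), neither of which passed the test.

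*Jund*, the JUN protein known for steady expression and for restraining growth, was at 18.6 to 46.2 CPM in control myotubes at Rest (median 36.1), 29.5 to 34.3 CPM at EPS 0h (median 33.8) and 19.2 to 29.9 CPM at EPS 3h (median 21.8). *Tug1* KD myotubes had 18 to 40.1 CPM (median 33.8), 19.9 to 25.9 CPM (median 23.0) and 18.1 to 29.0 CPM (median 23.1). The Rest groups were the most scattered and overlapped every other group. The log2FC from Rest in control myotubes was -0.11 at EPS 0h (95% interval -0.45 to 0.23) and -0.62 at EPS 3h (SE 0.169, FDR = 0.00255). With *Tug1* KD it was -0.44 (SE 0.169, FDR = 0.0325) and -0.46 (SE 0.17, FDR = 0.023). Between EPS 0h and EPS 3h it fell in control (log2FC -0.51, SE 0.17, FDR = 0.0338) and was at -0.02 in *Tug1* KD myotubes (95% interval -0.36 to 0.33). *Jund* was lower in replicates 4 to 6 than in replicates 1 to 3 at Rest, with set means of 28.9 and 42.5 CPM in control (FDR = 0.0383, background 18.3%) and 23.7 and 38.4 CPM in *Tug1* KD myotubes (FDR = 0.0157, background 11.8%). In replicates 4 to 6 alone the fall at EPS 3h was not called in control (-0.39, FDR = 0.12) or *Tug1* KD myotubes (-0.14, FDR = 0.636), nor was that at EPS 0h with *Tug1* KD (-0.11, FDR = 0.745). The change from EPS 0h to EPS 3h in control myotubes was not called in replicates 1 to 3 (-0.39, FDR = 0.099) or in replicates 4 to 6 (-0.61, FDR = 0.0555). Leaving out replicate 1, 2 or 5 ended the *Jund* calls at both time points in *Tug1* KD myotubes and the call from EPS 0h to EPS 3h in control myotubes, with values from -0.54 to -0.32. Without replicate 3 the *Tug1* KD call at EPS 0h was lost (-0.35, FDR = 0.122), and without replicate 4 the control call from EPS 0h to EPS 3h (-0.55, FDR = 0.063). The *Jund* call at EPS 3h in *Tug1* KD myotubes was also lost with limma-voom and with the compared groups alone.

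*Atf3* encodes a stress-induced bZIP protein of the ATF family that pairs with JUN proteins and mostly represses as a homodimer. In control myotubes it was at 139 to 213 CPM at Rest (median 164), 390.2 to 472 CPM at EPS 0h (median 419.6) and 464 to 552 CPM at EPS 3h (median 492). *Tug1* KD myotubes had 117 to 197 CPM (median 132), 368 to 422 CPM (median 396) and 423 to 496 CPM (median 488). Every stimulated library exceeded the highest Rest library of its LNA group. The log2FC was 1.36 at EPS 0h (SE 0.101, FDR = 1.4e-12) and 1.59 at EPS 3h (SE 0.102, FDR = 4.53e-15) in control, and 1.46 (SE 0.101, FDR = 1.15e-13) and 1.71 (SE 0.102, FDR = 5.64e-16) in *Tug1* KD myotubes. From EPS 0h to EPS 3h the log2FC was 0.23 in control (FDR = 0.116) and 0.24 in *Tug1* KD myotubes (FDR = 0.0949), where EPS 3h and EPS 0h did not overlap. Ranked by mean over the 6 groups, neighbouring groups were apart only between *Tug1* KD EPS 0h and control Rest for *Atf3*, control EPS 3h and control EPS 0h for *Jun*, and *Tug1* KD Rest and control EPS 0h for *Junb*.

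**Figure D2:**
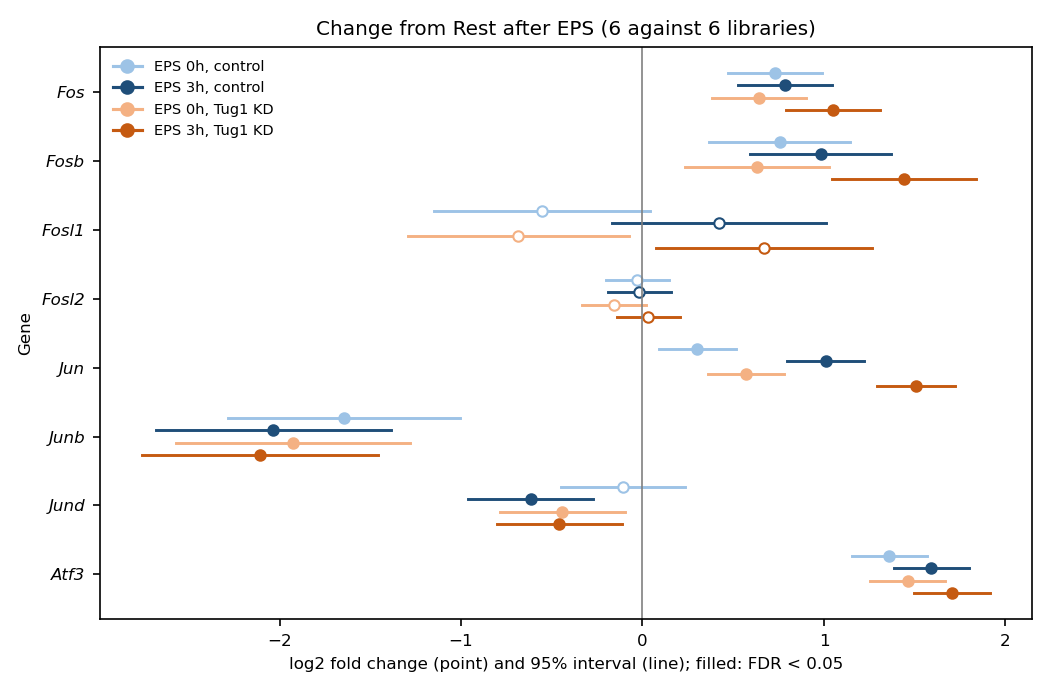
Change from Rest of the 8 genes at each time point in control and *Tug1* KD myotubes, as log2FC (points) with the 95% interval (lines), 6 against 6 libraries. Filled points passed an FDR of 0.05. *Atf3*, *Fos*, *Fosb* and *Jun* lie right of 0 and *Junb* left of it in all 4 comparisons, while *Fosl1* changes side between the time points without a call.

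From EPS 0h to EPS 3h, 2 genes rose (*Fosl1* and *Jun*) and 1 fell (*Jund*) in control myotubes, with 16.6% of all genes called (9.67% higher and 6.88% lower). With *Tug1* KD, *Fos*, *Fosb*, *Fosl1* and *Jun* rose and none fell, with 15.7% of all genes called (8.59% higher and 7.13% lower). These comparisons share their EPS 0h libraries with those of EPS 0h against Rest.

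Levels of different genes were compared per kb of exon, as CPM per kb of annotated exon length. In control myotubes at Rest *Junb* was the most abundant (221.5 ± 58.8 CPM per kb), followed by *Jun* (153 ± 18.4) and *Atf3* (67.8 ± 10.6) (SD, n = 6). At EPS 0h the order was *Jun* (189 ± 18.4 CPM per kb), *Atf3* (174 ± 11.2) and *Junb* (70.7 ± 30.7). At EPS 3h it was *Jun* (309 ± 37.9 CPM per kb), *Atf3* (204 ± 15.6) and *Junb* (54.0 ± 27.2). The other 5 genes were below these in all 3 conditions, *Fos* at 15.5, 25.7 and 26.6 CPM per kb and *Fosb* lowest at 0.99, 1.67 and 1.95 CPM per kb. By the length of the longest transcript instead, *Atf3* (200.5 CPM per kb) stood just above *Jun* (189) at EPS 0h, and *Junb*, *Jun* and *Atf3* remained the 3 most abundant in each condition. The shift from *Junb* to *Jun* at the head of the JUN family held on both lengths.

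**Figure D3:**
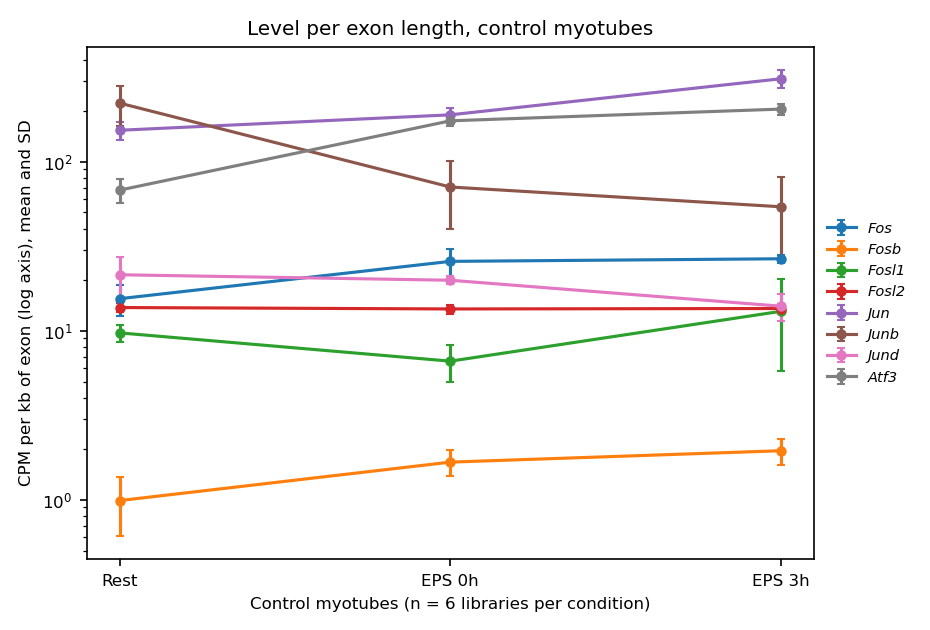
Level per exon length (CPM per kb, log axis) of the 8 genes in control myotubes at Rest, EPS 0h and EPS 3h, as mean and SD of 6 libraries. *Junb* leads at Rest at 221.5 CPM per kb and lies afterwards below *Jun* and *Atf3*.

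The effect of the *Tug1* LNA was compared within each condition. At Rest none of the 8 genes was called (background 10%, 5.54% higher and 4.47% lower), although 3 had an unadjusted p below 0.05 in edgeR. The share of all genes at that unadjusted p was not counted. DESeq2 called 1 of the 8 genes (1639 of all 13995 genes) and limma-voom called 0 (1461 of all genes). The log2FC was -0.37 for *Fos* (SE 0.128, FDR = 0.0608), -0.28 for *Jun* (SE 0.104, FDR = 0.0812) and -0.21 for *Atf3* (SE 0.0996, FDR = 0.223). *Fosl1* had the largest log2FC in size, -0.45 (SE 0.293, FDR = 0.423), with 5 of 6 *Tug1* KD libraries below every control library. Over the alternatives the *Fosl1* value ran from -0.74 to -0.17, with FDR from 0.0157 to 0.722. The median was -0.24 over the 8 genes and -0.03 over all genes. For *Jun* and *Fosl1* each of the 6 *Tug1* KD values was below the mean of control, as were 5 of 6 for *Fos*, *Fosb* and *Atf3*.

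At EPS 0h *Fos* and *Jund* were lower in *Tug1* KD myotubes, with 14.3% of all genes called (8.25% higher and 6.07% lower). *Fos* was at 60.6 ± 11.1 CPM in control and 44.1 ± 3.98 CPM in *Tug1* KD myotubes (SD, n = 6), a log2FC of -0.46 (SE 0.127, FDR = 0.011), and 4 of 6 *Tug1* KD libraries lay below every control library. *Jund* was at 33.1 ± 1.83 CPM and 22.9 ± 2.45 CPM (SD, n = 6), a log2FC of -0.54 (SE 0.17, FDR = 0.0277), and the groups did not overlap. *Fosb* had a log2FC of -0.46 (SE 0.191, FDR = 0.101), and with the replicate number as a block, which pairs the libraries here, it was -0.47 and passed (FDR = 0.0313). *Fosl2* had a log2FC of -0.22 (95% interval -0.39 to -0.04, FDR = 0.0885) and was called when scaled by library size only (-0.25, FDR = 0.0478). The *Fos* call was lost without replicate 2 (-0.40, FDR = 0.07) and in replicates 4 to 6 alone (-0.34, FDR = 0.0661), and the *Jund* call was lost without replicate 3 (-0.49, FDR = 0.0727), 4 (-0.53, FDR = 0.0922) or 5 (-0.49, FDR = 0.116) and in replicates 1 to 3 alone (-0.44, FDR = 0.0986). For *Jun* the log2FC was -0.02 (95% interval -0.23 to 0.19).

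At EPS 3h none of the 8 genes was called (background 11.5%, 6.38% higher and 5.11% lower). In edgeR 1 had an unadjusted p below 0.05, for which the share of all genes was not counted. DESeq2 and limma-voom called 0 of the 8 genes (1850 and 1573 of all 13995 genes). *Jun* was 985 ± 121 CPM in control and 1143 ± 168 CPM in *Tug1* KD myotubes (SD, n = 6), a log2FC of 0.21 (95% interval 0.005 to 0.425, FDR = 0.2). *Fos* stood at 62.8 ± 3.44 and 58.5 ± 6.61 CPM, a log2FC of -0.10 (95% interval -0.36 to 0.15).

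**Figure D4:**
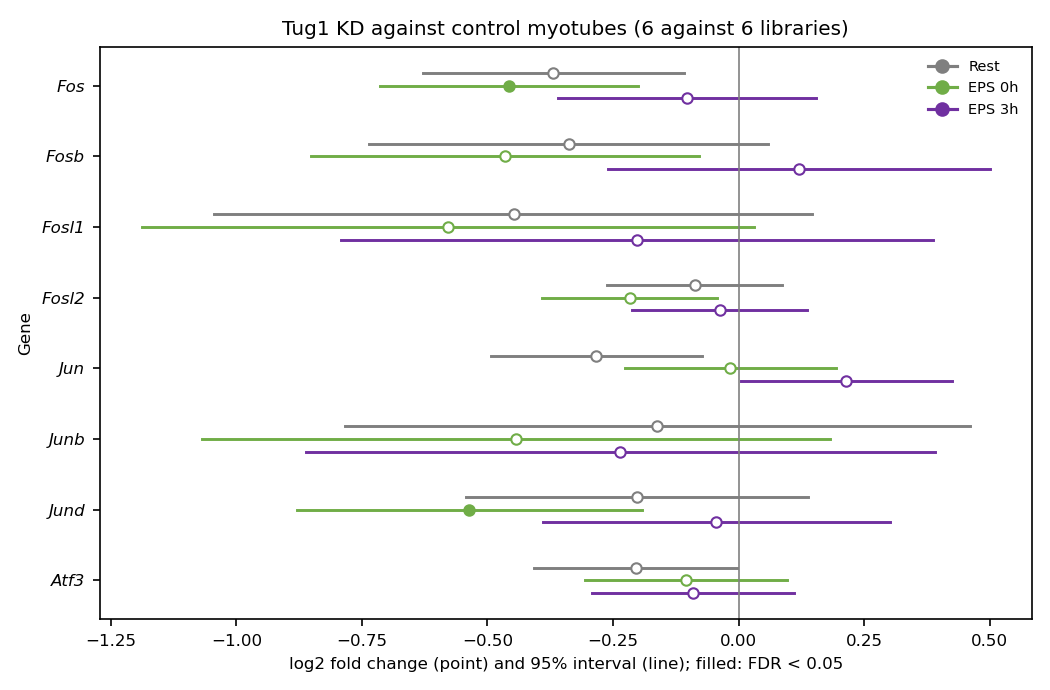
*Tug1* KD against control myotubes at Rest, EPS 0h and EPS 3h for the 8 genes, as log2FC (points) with the 95% interval (lines), 6 against 6 libraries. Filled points passed an FDR of 0.05, which were *Fos* and *Jund* at EPS 0h.

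Whether the response to EPS differed between the LNA groups was tested by the interaction of EPS and LNA. None of the 8 genes passed for EPS 0h against Rest (background 0%), EPS 3h against Rest (background 0.00715%, 1 gene of 13995) or EPS 3h against EPS 0h (background 0%), in edgeR, DESeq2 or limma-voom. At an unadjusted p below 0.05 edgeR had 0, 1 and 2 of the 8 genes, and the share of all genes at that threshold was not counted. *Jun* came closest to the threshold, for EPS 3h against Rest, where its rise was 1.01 in control and 1.51 in *Tug1* KD myotubes, a difference of 0.50 (95% interval 0.20 to 0.80, FDR = 0.683). *Fosb* and *Jund* followed, with a difference of 0.58 (95% interval 0.04 to 1.13) and 0.49 (95% interval 0.004 to 0.979) for EPS 3h against EPS 0h. The calls that only 1 LNA group had, such as the rise of *Fos* and *Fosb* from EPS 0h to EPS 3h, were therefore not shown to differ between the LNA groups.

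The calls for the *Tug1* LNA at Rest changed with the replicates used. With replicates 1 to 3 alone *Fos* (-0.75, SE 0.146, FDR = 0.00449), *Fosb* (-0.86, SE 0.25, FDR = 0.0475), *Jun* (-0.48, SE 0.138, FDR = 0.0473) and *Atf3* (-0.47, SE 0.122, FDR = 0.0284) were lower in *Tug1* KD myotubes. That fit called 866 of all 13995 genes. With the other replicates alone none was called, with *Fos* at -0.02 (SE 0.124), *Fosb* at 0.21 (SE 0.226), *Jun* at -0.09 (SE 0.125) and *Atf3* at 0.04 (SE 0.123). More genes were called overall in that fit, 2256 of 13995. Replicate 1 of control myotubes was the highest Rest library for all 4 genes, at 50.6 CPM for *Fos*, 10.3 CPM for *Fosb*, 596 CPM for *Jun* and 213 CPM for *Atf3*. The difference between the sets was 0.73 for *Fos* (SE 0.194, FDR = 0.121), 1.07 for *Fosb* (SE 0.349, FDR = 0.166) and 0.50 for *Atf3* (SE 0.176, FDR = 0.182), and no gene of 13995 passed that test (background 0%). At EPS 3h the same test called 0.0214% of genes and none of the 8. The labels do not name these sets as experiments.

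**Figure D5:**
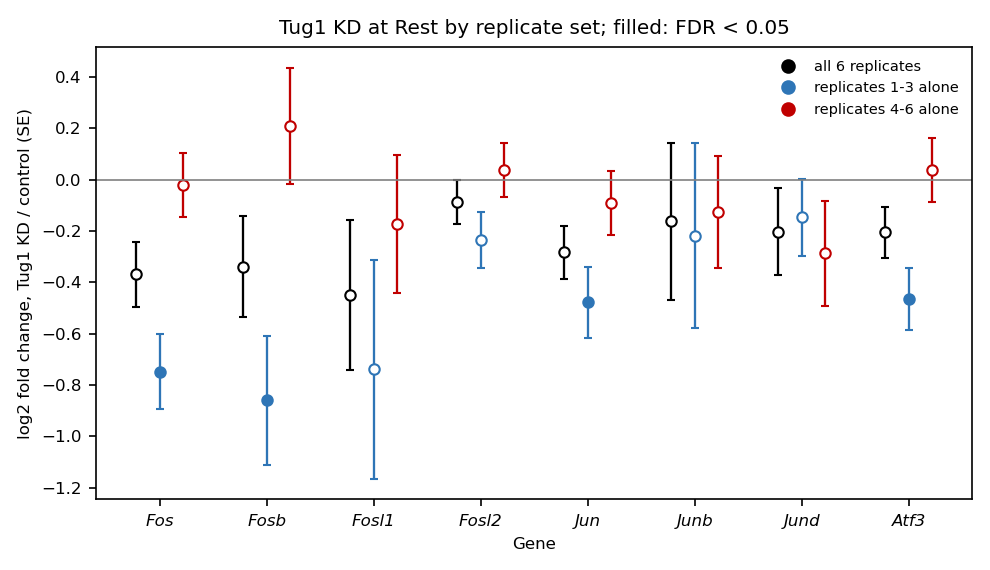
*Tug1* KD against control myotubes at Rest for the 8 genes, from all 6 replicates and from each set of 3, as log2FC (points) with its SE (bars). Filled points passed an FDR of 0.05: *Fos*, *Fosb*, *Jun* and *Atf3* in replicates 1 to 3, which lie between -0.86 and -0.47.

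AP-1 proteins also pair with other bZIP proteins, and 24 of a list of 28 such genes were tested. In control myotubes 8 were higher and 3 lower at EPS 0h (background 20.5% and 18.4%), and 10 were higher and 6 lower at EPS 3h (background 26.1% and 25.9%), with a median log2FC of 0.17 and 0.10 against -0.03 and -0.02 over all genes. *Batf*, a bZIP protein without an activation domain that pairs with JUN proteins, had the largest rise, from 0.49 to 2.21 CPM at EPS 0h (log2FC 2.18, SE 0.251, FDR = 1.58e-08). *Cebpg* (log2FC 1.05, FDR = 2.79e-08) and *Maff*, a small MAF protein (log2FC 0.83, FDR = 2.58e-06), followed at EPS 0h. *Creb5* rose at EPS 3h from 15.6 to 38.0 CPM (log2FC 1.29, FDR = 3.55e-07). The largest falls at EPS 3h were those of *Cebpa* (log2FC -1.28, FDR = 0.00117), *Atf5* (log2FC -1.08, FDR = 0.000158) and *Atf7* (log2FC -0.72, FDR = 1.53e-05). *Tug1* KD lowered *Cebpd* at Rest (log2FC -0.63, FDR = 0.0356), *Maff* (log2FC -0.42, FDR = 0.0275) and *Nfil3* (log2FC -0.33, FDR = 0.0377), and *Atf6* was higher (log2FC 0.50, FDR = 0.000121).

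Kinases that phosphorylate AP-1 proteins, SRF and its cofactors, and regulators of JUN turnover formed a list of 31 genes, of which 29 were tested. In control myotubes 4 were higher and 8 lower at EPS 0h and 6 were higher and 9 lower at EPS 3h, in number near the 38.9% and 52% of all genes called, with a median log2FC of -0.13 at both. The largest falls at EPS 3h were those of *Mapk11* (p38 beta, log2FC -1.10, FDR = 2.67e-09), *Mapk7* (ERK5, log2FC -0.78, FDR = 1.08e-05) and *Map2k7* (which activates JNK, log2FC -0.74, FDR = 1.81e-05). *Map3k5* (log2FC 0.75, FDR = 0.0387), *Rps6ka5* (log2FC 0.70, FDR = 0.0453) and *Map2k4*, the other kinase that activates JNK (log2FC 0.67, FDR = 3.18e-06), had the largest rises. *Map3k5* was near the filter on low counts, at 0.80 CPM at Rest and 1.35 CPM at EPS 3h. At Rest 4 were higher and 2 lower with *Tug1* KD than in control myotubes (background 10%). *Rps6ka3* (log2FC 0.76, FDR = 0.00288) and *Fbxw7*, which marks c-Jun for degradation (log2FC 0.62, FDR = 0.0114), were higher, and *Rps6ka1* was lower (log2FC -1.16, FDR = 0.000746).

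Of 30 textbook AP-1 target genes 24 were tested. In control myotubes 5 were higher and 4 lower at EPS 0h and 9 were higher and 4 lower at EPS 3h, again near the background of 38.9% and 52%, with a median log2FC of 0.10 and 0.02. *Mmp9*, a matrix metalloproteinase, rose from 1.38 CPM at Rest to 2.26 CPM at EPS 0h and 9.76 CPM at EPS 3h (log2FC at EPS 3h 2.82, SE 0.302, FDR = 9.16e-10). The EGF receptor ligand *Ereg* rose from 16.3 to 58.5 CPM at EPS 3h (log2FC 1.84, SE 0.212, FDR = 4.68e-09). The chemokine *Ccl2* fell from 70.2 to 24.0 CPM (log2FC -1.55, SE 0.306, FDR = 6.03e-05), and *Ier3* (log2FC -0.63, FDR = 0.0138) and *Tgfb1* (log2FC -0.52, FDR = 0.00986) fell as well. With *Tug1* KD only *Hbegf*, another EGF receptor ligand, was called among the 24 targets, and it was lower at Rest (log2FC -0.54, FDR = 8.03e-05), at EPS 0h (log2FC -0.37, FDR = 0.00474) and at EPS 3h (log2FC -0.50, FDR = 0.000237). The background for *Tug1* KD was 10% at Rest, 14.3% at EPS 0h and 11.5% at EPS 3h. None of the 3 lists had a gene called for the interactions.

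Markers of undifferentiated or reserve myoblasts did not move as a set at EPS 0h, where 2 of the 6 tested were higher and 2 lower in control myotubes. Sums over a list are scaled by library size only, without TMM. For the 7 genes of that list they ran from 694 to 885 CPM in control myotubes at Rest (median 760.4). They ran from 472 to 727 CPM at EPS 0h (median 609.6) and from 356 to 556 CPM at EPS 3h (median 521). *Cdh15* was the largest part of them, with group means of 503, 413 and 409 CPM (TMM scaled) at Rest, EPS 0h and EPS 3h. Of the defining genes of the list *Pax3* was near 0. *Id1* (log2FC -1.47 at EPS 0h, FDR = 1.01e-07) and *Id3* (log2FC -0.80, FDR = 0.000558) fell with *Junb*, while *Myf5* (log2FC 1.30, FDR = 3.54e-06) and *Spry1* (log2FC 0.52, FDR = 0.000113) rose at EPS 0h. At EPS 3h 3 of 6 tested genes of the list were lower and none higher. Of the 9 tested myotube markers none was called at EPS 0h and 1 was lower at EPS 3h (*Atp2a1*, log2FC -0.29, FDR = 0.0179). Scaled by library size only, the list summed to 15240 to 20920 CPM at Rest and 13820 to 19330 CPM at EPS 3h. That scaling also put the median log2FC of all genes at -0.19 at EPS 3h. With TMM the median log2FC of the 9 tested markers was -0.05 at EPS 3h in control myotubes. Of 6 markers of proliferating cells 1 was higher and 1 lower at EPS 0h, and 1 higher and 2 lower at EPS 3h, and of 3 tested fibroblast genes 1 (*Pdgfra*) was lower at both, beside a background of 38.9% and 52%. Fewer cells of a type and less RNA per cell cannot be told apart in these libraries, and the part of these cells in the AP-1 results was not tested. The share of counts on mitochondrial genes had medians in control myotubes of 1.37% at Rest, 2.05% at EPS 0h and 1.35% at EPS 3h.

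The pattern of each gene over the 6 groups was compared with all other genes tested, by the root mean square difference of the group means of log2 CPM, each centred on its own mean. Among the 8 genes *Fos* and *Fosb* were closest (0.151), followed by *Fosb* and *Jun* (0.191) and *Fosl2* and *Jund* (0.236), and *Junb* and *Atf3* were farthest apart (1.69). The genes most like *Junb* were *Bdkrb2* (0.133), the bradykinin B2 receptor, which went from 17.2 CPM at Rest to 6.21 CPM at EPS 0h in control myotubes, and *Slc16a11* (0.146). Most like *Atf3* were *Tent4b* (0.0776) and *Gzmm* (0.0814), and most like *Jun* were *2610037D02Rik* (0.0682) and *Stab1* (0.0723). *Fos* was closest to *1700101I11Rik* (0.0815) and *Msl3l2* (0.0847), *Fosb* to *Fam161a* (0.11) and *Arhgap6* (0.114), and *Fosl1* to *Ptger4* (0.0722), a prostaglandin receptor, and *Tmem40* (0.0836). *Fosl2* was closest to *Arpc3* (0.0268) and *Cyth2* (0.0306) and *Jund* to *Zbtb48* (0.0633) and *Zfp213* (0.0637), in patterns of little range. With replicates 4 to 6 alone only *Bdkrb2* for *Junb* was again among the 2 nearest, and with replicates 1 to 3 alone none was.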

How the data were processed

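The deposited values are whole-number counts per gene, which the authors made by trimming reads with fastp 0.14.1, checking them with FastQC 0.11.7 and aligning them with STAR 2.5 to GRCm39 per the labels and the methods of the study, without normalization. The strand setting of the counting is not given in the sources used here. Groups and replicate numbers came from the sample titles, and all 36 libraries were used. Genes with at least 1 CPM in at least 12 libraries (13995) were kept, scaled by TMM and fitted in edgeR 4.0.16 (quasi-likelihood, robust, R 4.3.3) over all 6 groups, with no term for the replicates. The code was tested on simulated data. Alternatives included DESeq2 1.42.0, limma-voom (limma 3.58.1), other scalings and filters, a block for the replicate number or for replicates 1 to 3 against 4 to 6, the compared groups alone, replicates 1 to 3 or 4 to 6 alone and each replicate left out. Chosen after seeing the data were leaving out replicate 3 of control EPS 3h and the fit of groups split by replicate set. Libraries of the same number were taken as pairs where every one of the 6 correlations of centred log2 CPM was over 0.1. This holds for EPS 0h against Rest in both LNA groups (lowest 0.232 and 0.156), EPS 3h against Rest in control, EPS 3h against EPS 0h in *Tug1* KD myotubes, and *Tug1* KD against control at EPS 0h and EPS 3h (lowest 0.57 and 0.207). The rule does not show true pairs, since a difference shared by a set of replicates can also meet it. All 6 libraries were closest to their own number only for *Tug1* KD against control at EPS 0h. The genes, lists and alternatives were chosen with earlier results of these data known. All 8 genes are named, *Tug1*, up to 3 list genes per direction that passed the test with the largest changes, and the 2 genes most like each of the 8 genes. The values of 1 list gene are not reported here. No library was a copy of another (lowest chi-square over its degrees of freedom within a group 4.258). Gene models are those of GENCODE vM39, which holds 13946 of the 13995 genes.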

Additional observations from a re-analysis of the deposited data

Results flagged for a closer look

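A library stood apart from the other 5 of its group in 2 of the 48 combinations of gene and group examined, and chance alone gives about 1 in 20. *Fosl2* was at 160 CPM in replicate 6 of control myotubes at Rest, where the next library was at 142 CPM, a gap of 0.742 of the range of the group. *Jund* was at 29.5 CPM in replicate 1 of control myotubes at EPS 0h, where the next library was at 33.2 CPM, a gap of 0.77 of the range. For the genes examined, no difference in response between the LNA groups passed the test. Between the replicate sets, the *Tug1* KD effect in each condition and the responses from Rest in control myotubes were tested. None of these differences passed for the genes examined. No other response was tested between the sets, so the EPS responses in *Tug1* KD myotubes were not tested for such a difference.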

How the results depend on the processing

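Of 96 combinations of gene and comparison, 43 were called in the main analysis or in at least 1 alternative. Over these, 3 values changed direction, none of them called: *Fosl2* at EPS 0h against Rest in *Tug1* KD myotubes was 0.087 in replicates 1 to 3, and at Rest *Fosb* was 0.21 and *Atf3* 0.038 in replicates 4 to 6. The number of the 8 genes called in *Tug1* KD against control at Rest (0) was 1 with DESeq2, library size only, upper quartile factors or the compared groups alone, 2 with the replicate block or a term for replicates 1 to 3 against 4 to 6 (experiments are not in the labels), 4 in replicates 1 to 3, and 0 to 1 with a replicate left out. Of 13995 genes the main fit called 1401. DESeq2 called 1639, library size only 1380, upper quartile factors 1421, the compared groups alone 1715 and the replicate block 2410. The term for the sets called 2232, replicates 1 to 3 called 866, and fits with a replicate left out called 955 to 1177. At EPS 0h (2) the number of the 8 genes called was 1 without the filter on low counts, in either set of 3 replicates, and 1 to 2 with a replicate left out. The main fit called 2005 of all genes there, replicates 1 to 3 called 940 and replicates 4 to 6 called 2329. Without the filter 1295 of 39727 genes were called, and with a replicate left out 1284 to 1670 of 13995. From EPS 0h to EPS 3h the number of the 8 genes called was 1 in replicates 4 to 6 in control (3), and 2 in replicates 1 to 3 in *Tug1* KD myotubes (4). Of all genes these fits called 1790 in control (2317 in the main fit) and 1290 in *Tug1* KD myotubes (2200 in the main fit). *Tug1* at EPS 0h was -0.49 in replicates 1 to 3 and from -0.622 to -0.535 with a replicate left out, and at EPS 3h -0.521 with the compared groups alone, -0.501 in replicates 1 to 3 and from -0.604 to -0.428 with a library or replicate left out. The cause of these changes was not tested, and fits to 1 set hold fewer libraries. By the rule for pairs given above, the replicate number did not pair the libraries of *Tug1* KD and control at Rest (lowest r -0.077). There 3 of 6 libraries were closest to their own number. The block ended or added no call beyond those given here and in the report, except for *Fosl1* at EPS 3h against Rest with *Tug1* KD (0.55, FDR = 0.046). Scaled by library size only, the share of called genes that were higher moved from 58.4% to 36.7% and from 54.6% to 36.8% for EPS 3h against EPS 0h (control, *Tug1* KD), from 53.6% to 40.5% and from 50.3% to 32.8% for EPS 0h and EPS 3h against Rest with *Tug1* KD, and from 57.6% to 46.9% for *Tug1* KD at EPS 0h (44.1% with upper quartile factors). *Fosb*, with 62 to 315 counts per library, has the fewest counts of the 8 genes.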
